A study of Mus musculus with 2 samples.

Results

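Carbonic anhydrases are zinc enzymes that interconvert carbon dioxide and water with bicarbonate and a proton. Their isoforms differ in place: some work in the cytosol, some in the mitochondrion and some at the cell surface, and a few relatives have lost zinc-binding residues and are called acatalytic. In adipocytes, bicarbonate is a substrate of the carboxylases that start fatty acid synthesis and refill the citrate cycle, and carbonic anhydrase III is known as an abundant protein of fat and of skeletal muscle. The expression of 10 members of this family (Car2, Car3, Car4, Car5b, Car8, Car9, Car11, Car12, Car13 and Car14) was followed in brown adipogenesis. They were taken by symbol from a table of 23361 genes with values, in which 16 carbonic anhydrase genes were measured.

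RNA-Seq had been run on brown preadipocytes (D0) and on brown adipocytes (D7), 2 libraries with 1 for each stage. The cells of both stages were taken from brown fat between the shoulder blades of newborn C57BL/6 mice, grown with 20% serum and then kept for 4 days with 10% serum, T3 at 1 nM and insulin at 0.1 μM, so by the labels the D0 cells had also received insulin and T3. The D7 cells were induced at day 0 with dexamethasone at 2 μg/ml, indomethacin at 0.125 mM and IBMX at 0.5 mM, and after 2 days went back to the medium with insulin and T3 until day 7. The labels call the cells primary cultures, while the study's methods describe immortalization with large T and pups of either sex from a single pregnant C57BL/6J animal. Those methods also give other concentrations of insulin, dexamethasone and growth serum, and do not mention insulin and T3 before induction, so that exposure of the D0 cells rests on the labels alone. Induction and time in culture cannot be told apart.

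Levels are FPKM, fragments scaled by transcript length and by library, so they can be set side by side between genes. The number of fragments behind each FPKM was recovered from the step size of the values, and the library totals behind the scaling were 21471402 (D0) and 18265381 (D7). Exact 95% intervals were computed from these fragments. Without replicates they hold counting error alone, and so compare 2 libraries rather than 2 stages. A gene above 0 in both libraries was called higher at D7 at a ratio of at least 2.0 and lower at a ratio of at most 0.5. The labels were checked against markers of each cell type. All 8 adipocyte markers were higher at D7, and their summed FPKM went from 71.6 to 19692. Of 7 brown adipocyte markers, 3 were higher and the other 4 (Ucp1, Cidea, Elovl3 and Cox8b) were listed at 0 at D0. Their summed FPKM was 8.37 at D0 and 711 at D7. Most of the D7 sum came from Cox7a1 (389) and Cox8b (253). Elovl3 and Cidea reached 34.2 and 24.4, and Ucp1, Ppargc1a and Dio2 reached 4.57, 4.41 and 2.11. Among 6 preadipocyte markers 3 were lower and 1, Cd34, was higher, against 13.2% and 18.5% of all genes above 0 in both. These are bulk RNA values, in which fewer cells of a type and less RNA per cell cannot be told apart.

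Car2, Car3 and Car5b, with FPKM of 0.0578 to 3.19 at D0, reached 24.1 to 235 at D7 and were then the 3 highest members. Car13, the highest member at D0, differed by less than 2.0-fold. Of the 8 members above 0 in both libraries, 4 were higher at D7 (Car2, Car3, Car5b and Car11), against 18.5% of the 14986 genes above 0 in both. A further 2 members were lower (Car8 and Car9), against 13.2% of those genes, and 2 were called in neither direction (Car13 and Car14). The remaining 2, Car4 and Car12, were above 0 at D0 and listed at 0 at D7. The median log2 ratio of the 8 members was 1.09, beside 0.02 over all genes above 0 in both. That median leaves out Car4 and Car12. Over all 10 members it was 0.28 with 0.1 added to each FPKM and 0.23 with 1 added, beside 0 over 23361 genes. Setting every value under 0.01 to 0.01 and dividing each library by its median would lower each log2 ratio of these 8 members by 0.35. With Car4 and Car12 let in, the median of the 10 members was then -0.07, beside -0.35 over 23361 genes. With both steps, 57.5% of the genes called were lower at D7, in place of 41.7%. The gene sets differ, because the floor adds genes listed at 0 and takes the count from 14986 to 23361 genes. With the 14986 genes divided by their medians and no floor, the share was 46.9%.

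**Figure D1:**
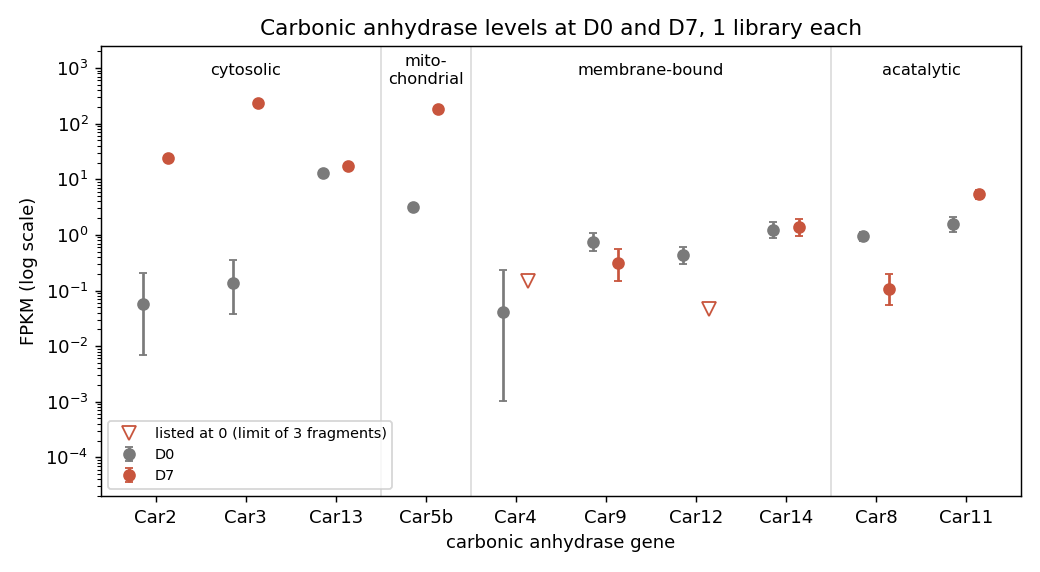
FPKM (log scale) of the 10 carbonic anhydrase genes at D0 (grey) and D7 (red), grouped by the place of the enzyme, with exact 95% counting intervals as bars and open triangles at the 3-fragment limit for values listed at 0. Car3, Car5b and Car2 stand at 235, 184 and 24.1 at D7, while the membrane-bound genes stay under 2 in both libraries.

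The zinc ion of a carbonic anhydrase is held by 3 histidines. In the coding sequences, 8 of the 10 members had a histidine codon at all 3 positions that align with those of Car2. Car8 kept 2 of them and Car11 none. The stretch with the first and second of these codons is shown for the 3 members with the highest FPKM ratios and for both acatalytic members. Its codons do not sort the members by change at D7. Car4, Car9, Car12, Car13 and Car14, not shown, have all 3 histidine codons and were not called higher, while Car11 was. The stretch was read from the mouse genome (GRCm38, mm10) with GENCODE M21 coding exons, and is written 5′ to 3′ on the strand of the gene. The 2 codon positions are in capitals.
Car2, exon 3, chr3:14895060-14895086, plus strand: atccagtttCACtttCACtggggctca
Car3, exon 3, chr3:14866841-14866867, plus strand: cgccaattcCATcttCACtggggctcc
Car5b, exon 4, chrX:163991405-163991431, minus strand: aagcagtttCATtttCATtggggagcc
Car8, exon 3, chr4:8221604-8221630, minus strand: tatgaagttAGAtttCACtggggaaga
Car11, exon 4, chr7:45702539-45702565, plus strand: agtgaactgCGCctgCTAtttggagct
CAC and CAT both code for histidine. Car2, Car3 and Car5b have them at both positions, Car8 has an arginine codon (AGA) at the first, and Car11 has an arginine codon (CGC) and a leucine codon (CTA). At the third position, outside this stretch, Car8 has CAC and Car11 has CAG, which codes for glutamine. Over aligned codons the coded protein of Car3 was 56.9% identical to that of Car2, and the share was 57.6% for Car13, 53.2% for Car5b, 44% for Car8 and 33.9% to 39.0% for the other 5 members. These differences also bear on counting: with reads of 90 bases and up to 5 mismatches, a 90-base window of 1 family gene matched another in 1 of 150 ordered pairs, Car5b with Car5a. The other pairs had no such window between the named transcripts, compared without gaps on 1 strand, of which that of Car10 is partial. Other isoforms and the rest of the genome were not searched. The limit of 5 mismatches is from the study's methods, and the submitters' notes list another aligner. Whether that limit lies behind these FPKM values is therefore not known.

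Car3 encodes the cytosolic form with low carbon dioxide hydration activity that is abundant in fat (ENSMUSG00000027559.5, chromosome 3, 14863512 to 14872523, plus strand). Its FPKM was 0.138 at D0 and 235 at D7, from 4 and 5781 fragments. The gene went from rank 13448 of the table to rank 367. Its ratio was 1703 with an interval from 665 to 6251, and 15 genes had a higher ratio. The interval is wide because of the 4 fragments at D0. Car3 is also a skeletal muscle protein, and the 7 muscle markers had a summed FPKM of 47.3 at D0 and 2.79 at D7. Of these, Acta1, skeletal muscle actin, went from 45.4 to 1.73, and Ckm and Myod1 were listed at 0 in both libraries.

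Car2 encodes the highly active, widely expressed cytosolic enzyme (ENSMUSG00000027562.12, chromosome 3, 14886273 to 14900770, plus strand). Its FPKM was 0.0578 at D0 and 24.1 at D7, from 2 and 709 fragments. The ratio was 418 with an interval from 115 to 3454, which overlaps that of Car3, so the 2 ratios could not be ordered. With 1 added to each FPKM the ratio of Car2 was 23.8, below the 44.1 of Car5b, so the order of Car2 and Car5b reversed. Car2 is also known from erythrocytes, osteoclasts and glia. Of the erythroid markers, Hba-a1, Hba-a2, Hbb-b1 and Gata1 were listed at 0 in both libraries, and the sum over the 7 measured was 0.164 at D0 and 0.193 at D7. The osteoclast list of 6 genes summed to 118 at D0 and 75.4 at D7, with Calcr and Dcstamp at 0 in both. Its members went both ways: Ctsk, which held most of the sum, was lower (116 to 52.1) and Acp5 was higher (1.23 to 23.1). Of 8 neural and glial markers, 6 were above 0 in both, of which 4 were higher and 1 was lower. Their sum went from 105 to 27.9, mostly through Tubb3 (101 to 18.0). All 8 macrophage markers were higher at D7, from a sum of 131 to 428. Lyz2 held most of both sums (111 and 286) and had the lowest ratio, 2.57, while Mrc1 had the highest, 35.8. Of all genes above 0 in both, 18.5% were higher and 13.2% lower. The part of the macrophage markers in the results of this family was not tested.

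Car13, the third cytosolic member, was not called in either direction (ENSMUSG00000027555.8, chromosome 3, 14641727 to 14663002, plus strand). Its FPKM was 13.1 at D0 and 17.4 at D7, from 598 and 673 fragments, with a ratio of 1.32 and an interval from 1.18 to 1.48. The interval lies above 1 and within the 2.0-fold limits, and with the floor of 0.01 and division by the library median the ratio was 1.04. Car13 was the highest member at D0, 4.12 times the next, and the fourth at D7.

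Car5b encodes the mitochondrial enzyme, which supplies bicarbonate inside the organelle (ENSMUSG00000031373.4, chromosome X, 163976822 to 164027997, minus strand). Its FPKM was 3.19 at D0 and 184 at D7, from 224 and 10960 fragments. The ratio of 57.6 has the narrowest interval of the 3 large increases, 50.4 to 66.0, because the gene was already measured well at D0. It lies below the intervals of Car2 and Car3 when no pseudocount is added. The gene moved from rank 9298 to rank 460, and 109 genes had a higher ratio. Its paralog Car5a, the other mitochondrial form, was listed at 0 in both libraries.

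**Figure D2:**
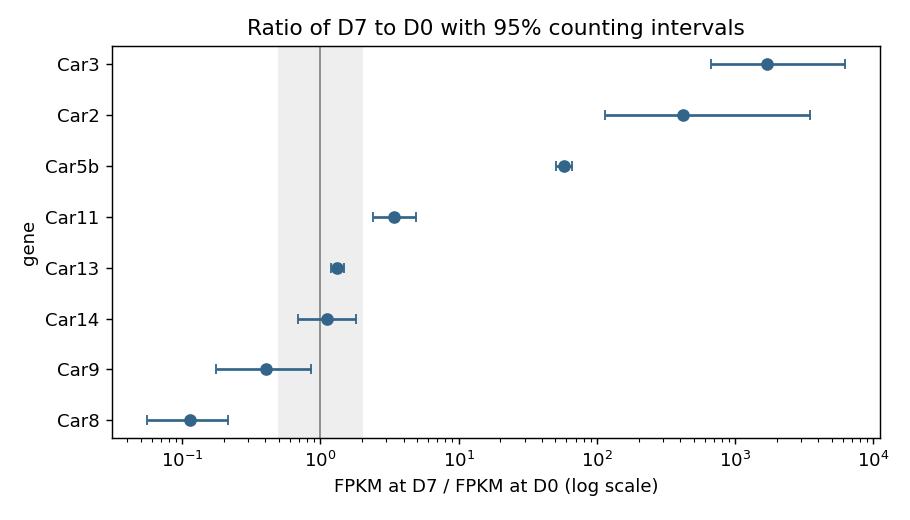
Ratio of FPKM at D7 to D0 (log scale) for the 8 members above 0 in both libraries, with exact 95% counting intervals as bars and the range within 2.0-fold shaded. The intervals of Car3, Car2, Car5b and Car11 lie above the shaded range and that of Car8 lies below it, while that of Car9 reaches from 0.177 to 0.857, across the limit of 0.5.

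The membrane-bound members have their active site outside the cell. None had an FPKM above 2 in either library, and together they summed to 2.46 at D0 and 1.67 at D7. Car12 (ENSMUSG00000032373.15, chromosome 9, 66713686 to 66766845, plus strand) had an FPKM of 0.435 at D0, from 33 fragments, and was listed at 0 at D7. Against a limit of 3 fragments at D7, it was at least 9.35-fold lower, which leaves out the counting error at D0, and with that error the exact interval of the ratio reached up to 0.139. Of the 15659 genes above 0 at D0, 673 (4.30%) were listed at 0 at D7, and 2 of these had more fragments at D0 than Car12. Car4, an enzyme anchored to the outer surface of capillary endothelium and epithelia (ENSMUSG00000000805.18, chromosome 11, 84957786 to 84966044, plus strand), was seen in 1 fragment at D0 and listed at 0 at D7, so no fold is given. The 9 endothelial markers summed to 1.73 at D0 and 2.72 at D7, with Tie1 and Cldn5 at 0 in both. Of the 7 above 0 in both, 2 were higher (Kdr and Tek) and 2 were lower (Cdh5 and Esam). Over all genes above 0 in both, 18.5% were higher and 13.2% lower.

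Car9 encodes a surface enzyme known as a target of hypoxia-inducible factor (ENSMUSG00000028463.14, chromosome 4, 43506966 to 43513729, plus strand). Its FPKM was 0.759 at D0 and 0.308 at D7, from 29 and 10 fragments. It was 2.46-fold lower at D7, with an interval of the ratio from 0.177 to 0.857, so counting error alone allows a change smaller than 2.0-fold, and with 1 added to each FPKM the ratio was 0.744. Car14 (ENSMUSG00000038526.14, chromosome 3, 95897768 to 95904691, minus strand) went from an FPKM of 1.22 to 1.37, from about 39 and 37 fragments. Its ratio of 1.12 had an interval from 0.693 to 1.80, and was 0.874 with the floor of 0.01 and division by the library median. The deposited locus of Car14 also spans Aph1a on the other strand, and Car9 overlaps Gm12454 on the other strand. The libraries keep strand, since the second cDNA strand was degraded, but whether strand was used in counting is not given in the sources used here, so these values are uncertain.

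The acatalytic members moved in opposite directions. Car8 encodes a protein of neurons, known from Purkinje cells, that binds the inositol trisphosphate receptor (ENSMUSG00000041261.9, chromosome 4, 8143362 to 8239041, minus strand). Its FPKM was 0.949 at D0 and 0.109 at D7, from 113 and 11 fragments. It was 8.73-fold lower at D7, with an interval of the ratio from 0.0556 to 0.213. With 1 added to each FPKM the ratio was 0.569, which is not past 2.0-fold. A lower ratio was found for 121 genes, or 0.807% of those above 0 in both. Car8 overlaps Gm11799 on its own strand and Gm25355 on the other. Car11 encodes a secreted relative (ENSMUSG00000003273.14, chromosome 7, 45699843 to 45704682, plus strand), and its FPKM was 1.59 at D0 and 5.40 at D7, from 43 and 124 fragments. The ratio was 3.40 with an interval from 2.38 to 4.93, which lies above that of Car13 and below that of Car5b.

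The summed FPKM of the 10 members went from 21.5 to 467, a ratio of 21.7. The cytosolic members (Car2, Car3 and Car13) made up a similar share at both stages, 62.0% and 59.2%, but not through the same genes. Car13 held 61.0% of the sum at D0 and 3.72% at D7, while Car3 held 0.641% and 50.3%. Mitochondrial Car5b went from 14.8% to 39.3%. The membrane-bound members went from 11.4% of the sum to 0.358%. Car8 and Car11 together went from 11.8% to 1.18%, although their summed FPKM was 2.54 at D0 and 5.51 at D7.

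**Figure D3:**
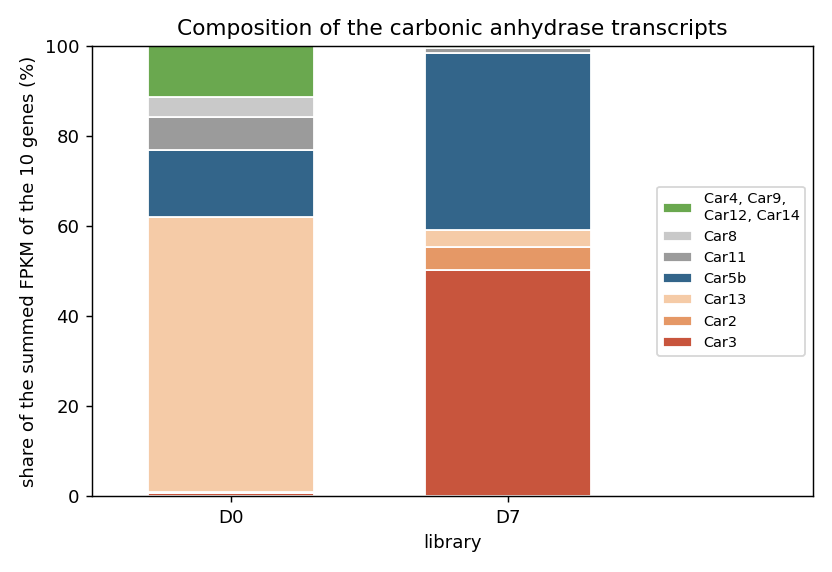
Share of the summed FPKM of the 10 genes (percent) held by each gene in the D0 and the D7 library, with the 4 membrane-bound genes as 1 block. Car13 fills 61.0% of the D0 bar, and Car3 and Car5b fill 50.3% and 39.3% of the D7 bar.

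By level at D0 the order was Car13, Car5b, Car11, Car14, Car8, Car9, Car12, Car3, Car2 and Car4. The intervals separate Car13 from Car5b and Car5b from Car11, which was 2.01 times lower, and from Car11 on each gene's interval overlaps that of the next. At D7 the order was Car3, Car5b, Car2, Car13, Car11, Car14, Car9 and Car8. Neighbours in that order were separated by their intervals except Car9 and Car8. Car3 was 1.28 times Car5b, and Car5b was 7.61 times Car2.

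Car13, Car1, Car3 and Car2 lie next to each other on chromosome 3, over 259 kb from the start of Car13 to the end of Car2. Car3 and Car2, separated by 14.1 kb, had ratios of 1703 and 418. Car1, the erythrocyte form, lies 55.2 kb before Car3 on the other strand, and was listed at 0 at D0 with an FPKM of 0.273 at D7, from 5 fragments, and the interval of its ratio began at 1.08. Car13 is a further 103 kb away. Outside the cluster, E2f5 went from 4.92 to 5.07, 1810022K09Rik from 102 to 114 and Lrrcc1 from 2.83 to 3.12, with ratios of 1.03 to 1.12, and A930001A20Rik was listed at 0 in both.

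**Figure D4:**
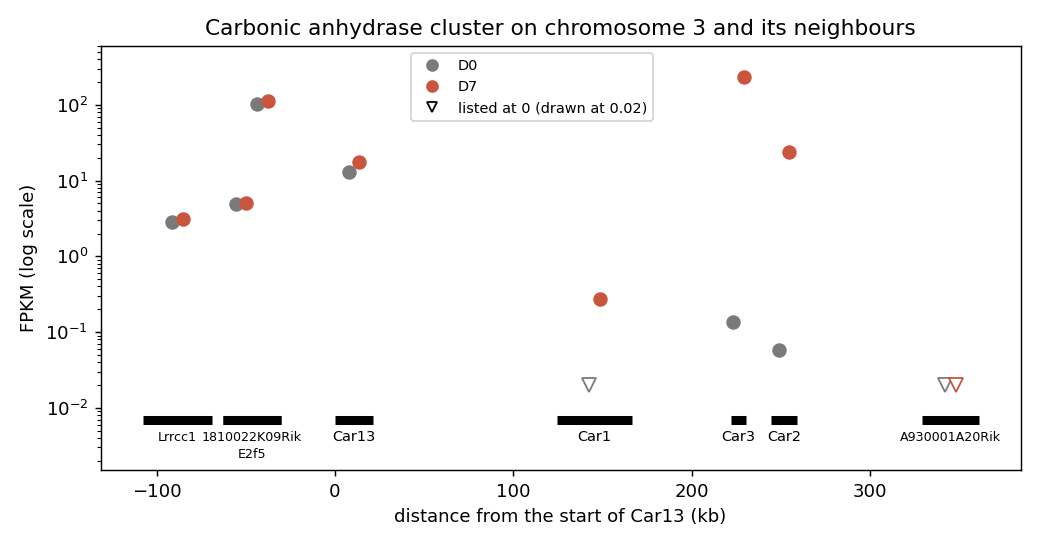
FPKM (log scale) at D0 (grey) and D7 (red) of the genes around the carbonic anhydrase cluster on chromosome 3, against the distance in kb from the start of Car13, with black bars for the gene loci and open triangles for values listed at 0. Car3 and Car2 go from 0.138 and 0.0578 to 235 and 24.1. For Car13, and for each of the 3 measured genes before it, the D0 and D7 points stand at nearly the same height.

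The other 6 carbonic anhydrase genes were under an FPKM of 1 in both libraries. Car15, a membrane-bound form, went from 0.302 to 0.949, from 6 and 16 fragments, and was called higher with a ratio of 3.14 and an interval from 1.17 to 9.81. Car6, the secreted form of saliva, had a ratio of 1.96 (0.382 to 12.6) from 3 and 5 fragments, and Car7, a cytosolic form of neurons, had 8 fragments at each stage. Car10, another acatalytic member, was seen in 1 fragment at D0 and listed at 0 at D7. Car15 overlaps Gm20518 on its own strand, and the deposited locus of Car7 spans 6 other genes, among them Nae1, Cdh16 and Pdp2. Car1, Car5a and Car10 also overlap other genes, so the values of these genes are uncertain too. The 2 receptor phosphatases with an outer carbonic anhydrase-like domain gave ratios of 0.386 for Ptprz1 (4.29 to 1.65) and 0.908 for Ptprg (13.6 to 12.3).

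RefSeq promoter windows of 300 bases were matched to 6 of the 10 members (GRCm38.p6). Car2, Car3, Car8 and Car13 had no entry. The core of the hypoxia response element, searched as ACGTG on both strands, was in 19.6% of all 32851 windows and in 3 of the 7 windows of the members (Car4, Car9 and Car14). TATAAA was in 1 member window (Car4) and in 13.6% of all. AGGTCA, the core site of many nuclear receptors, was in 0 member windows and in 16.3% of all, and a pair of AGGTCA 1 base apart was in 0 and in 0.0396%. The 250 bases before the start are shown for Car9, a hypoxia target that was lower at D7, and for Car5b, the member with the largest increase among those with an entry. The capitals mark the match in Car9, which reads CACGT on this strand.
Car9, chr4:43506776-43507025, plus strand: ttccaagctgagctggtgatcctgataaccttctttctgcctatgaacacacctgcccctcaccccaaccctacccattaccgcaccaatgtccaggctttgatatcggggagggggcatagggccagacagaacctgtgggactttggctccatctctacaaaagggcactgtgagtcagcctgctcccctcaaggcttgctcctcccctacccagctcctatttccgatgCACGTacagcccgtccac
Car5b, chrX:164028011-164028260, minus strand: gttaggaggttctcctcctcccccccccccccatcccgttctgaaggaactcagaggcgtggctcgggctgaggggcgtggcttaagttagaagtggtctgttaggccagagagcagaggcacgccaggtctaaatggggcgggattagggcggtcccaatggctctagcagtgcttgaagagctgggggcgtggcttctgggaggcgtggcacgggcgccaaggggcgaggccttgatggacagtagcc
The match in Car9 begins 18 bases before the start, and no searched motif was in the window of Car5b. These matches describe letters in the windows and say nothing of binding.

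Car9 was set beside other genes of the hypoxia-inducible factor pathway. Of 15 target genes, 6 were higher at D7 and 1 was lower, against 18.5% and 13.2% of all genes above 0 in both. Their median log2 ratio was 0.58, beside 0.02 over all such genes. The highest ratios were those of Pfkfb3, an activator of glycolysis (11.0 to 62.5, ratio 5.66), and of Egln3, a prolyl hydroxylase that acts on the factor (4.03 to 21.2, ratio 5.26). The lowest were those of Slc2a1, a glucose transporter (50.4 to 24.5, ratio 0.485), and of P4ha1, a collagen prolyl hydroxylase (99.1 to 52.1, ratio 0.526). Of 5 genes of the factor and its control, Epas1, an alpha subunit, was higher (2.01 to 24.8, ratio 12.4), and Hif1a, another alpha subunit, was lower (102 to 34.8, ratio 0.342). Egln1 and Arnt had ratios of 1.73 and 0.888.

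The carboxylases that use bicarbonate were higher at D7. All 7 of the list passed 2.0-fold, against 18.5% of all genes above 0 in both. Their median log2 ratio was 3.20, beside 0.02 over all such genes, and their ratios ran from 3.27 to 85.4. Pyruvate carboxylase (Pcx in the table), a mitochondrial enzyme, went from 9.86 to 842, with a ratio of 85.4. Acacb, the acetyl-CoA carboxylase of the mitochondrial surface, went from 0.477 to 32.2, with a ratio of 67.5. The lowest ratios were those of the leucine-degrading enzyme's subunits Mccc1 (9.39 to 36.8, ratio 3.92) and Mccc2 (8.88 to 29.0, ratio 3.27).

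Bicarbonate transporters did not move in 1 direction. Of 12 genes, 7 were above 0 in both libraries, of which 3 were higher and 2 lower, with a median log2 ratio of 0.32. Over all genes above 0 in both, 18.5% were higher and 13.2% lower, with a median of 0.02. Slc4a5 had a ratio of 10.6 with an interval from 2.53 to 94.1, from 2 and 18 fragments, and the sodium bicarbonate cotransporter Slc4a4 went from 0.573 to 3.98, with a ratio of 6.94. Slc4a2, the anion exchanger, went from 49.4 to 24.4, with a ratio of 0.493, and Slc4a8 had the lowest ratio, 0.438. Of 10 proton and lactate transporters and their partners, 8 were above 0 in both, of which 3 were higher and 2 lower, with a median log2 ratio of 0.29. The lactate carrier Slc16a1 was higher (5.52 to 17.8, ratio 3.23) and the lactate exporter Slc16a3 was lower (42.8 to 10.1, ratio 0.237). Slc16a8 had a ratio of 2.94 from 2 and 5 fragments (0.482 to 30.9), and the sodium/proton exchanger Slc9a5 had a ratio of 0.279.

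**Figure D5:**
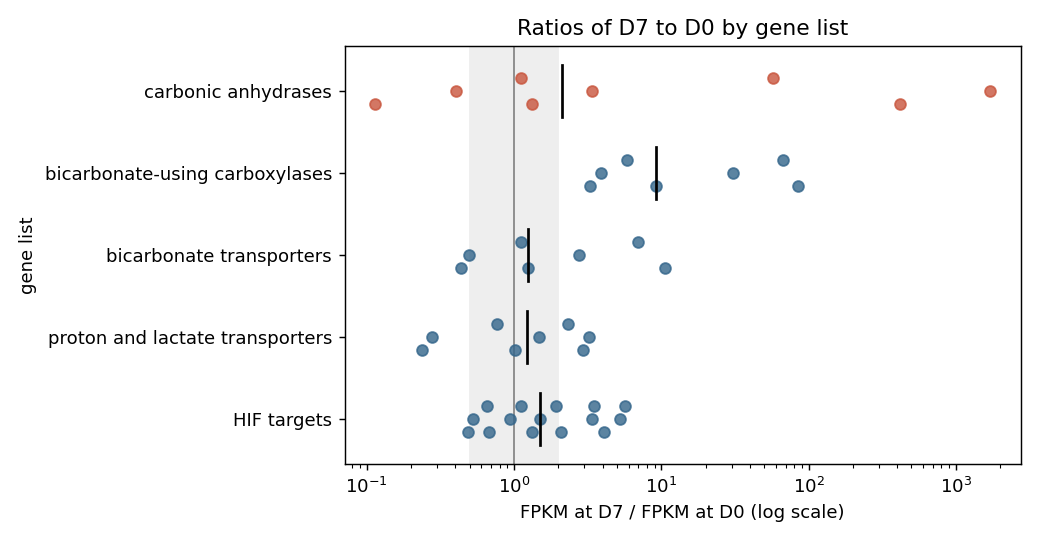
Ratio of FPKM at D7 to D0 (log scale) for each gene above 0 in both libraries, by list, with the 10-gene carbonic anhydrase list in red, a black bar at each list's median and the range within 2.0-fold shaded. All 7 carboxylases lie to the right of the shaded range, while the transporters and the hypoxia-inducible factor (HIF) targets lie on both sides of 1.

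The genes closest in pattern were found by the distance in log2 FPKM over the 2 libraries. For Car3, the highest member, they included Sult1a1, Cidec, Lcn2 and Plin1, at distances of 1.07 to 1.40. Cidec and Plin1 encode proteins of the lipid droplet, and went from 0.0612 to 241 and from 0.0554 to 324. For Car8, the member with the lowest ratio, they were Ube2ql1, Dscc1, Mns1, Fam132b and Il18rap, at distances of 0.0594 to 0.287, with FPKM between 0.858 and 1.13 at D0. With 2 libraries, a distance describes the levels and not a shared course.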

How the data were processed

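RNA-Seq of brown preadipocytes (D0) and brown adipocytes (D7) was analysed, with 1 library per stage. The FPKM values were deposited by the authors as 1 value per gene and library. The study's methods name SOAP2 for alignment, and the submitters' processing notes list Bowtie2 and mm10. The libraries were made with degradation of the second cDNA strand, and the gene annotation and the use of strand in counting are not given in the sources used here. Of 27324 rows, 3963 held no value.

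FPKM ratios of D7 to D0 were computed without a pseudocount or rescaling, and genes listed at 0 were counted apart. To recover fragments, 590 single-exon genes (600 bp or longer) were used: with 179 bp (D0) and 182 bp (D7) taken off each length, 100% of their 76 and 86 values up to 20 came out whole to within 0.1. With the lengths of named transcripts, 87.0% of 2713 and 85.6% of 2779 such values of other genes were whole, so fragment numbers are approximate. For the members other than Car14, the 16 values under 1000 fragments lay within 0.0257 of a whole number. A transcript whose ends differed by up to 2000 bp from the deposited locus was given the deposited ends, a step chosen after seeing the data. The FPKM of 1 fragment at D7 was 1.18 times that at D0. Intervals are exact (Poisson for a level, Clopper-Pearson for a ratio), and the limit for a value of 0 is 3 fragments. Depth limits the low members: Car2, Car3 and Car4 rest on 4 fragments or fewer at D0. Of 80 genes with ribosomal protein symbols, 2 (Rpl10l and Rpl3l) were listed at 0 in a library.

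The members, gene lists and marker lists were chosen with earlier results of these data known. In each gene list, the 2 highest and the 2 lowest ratios are named, and any gene listed at 0 in 1 library that reaches an FPKM of 1 in the other; for the patterns most like Car3 and Car8, the 5 nearest genes were taken, of which 1 is not reported here. Marker lists are given by counts and sums, and their genes and other genes are named to describe a count, some after their values were seen. No p-value is given, as there are no replicates. Pseudocounts, rescalings, filters on low values and a 4.0-fold threshold were tried as alternatives. Scripts were tested on simulated data. Protein sequences were not analysed here other than by translating codons. Computation was done with scipy 1.17.1, numpy 2.4.6 and pandas 2.3.3 in Python 3.11.15, and figures with matplotlib 3.10.9.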

Additional observations from a re-analysis of the deposited data

How the results depend on the processing

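The count of members called higher at D7 was 4 as reported and under each alternative tried except the 4.0-fold threshold, where it was 3 without Car11, while the count of lower members, 2 as reported, depended on the low values. It was 3 of 10 with 0.1 added to each FPKM, where Car12 enters, and 0 of 10 with 1 added to each FPKM. With a filter at an FPKM of 1 it was 0 of 6, since Car8 and Car9 were under 1 in both libraries. It was 4 of 10 with the floor of 0.01 and division by the library median, where Car4 and Car12 enter, and 1 of 8 at 4.0-fold. Over all genes, 1980 of 14986 were lower as reported, 1788 of 23361 with 0.1 added and 1021 of 23361 with 1 added. The filter at an FPKM of 1 gave 1430 of 11967 lower. The floor and division by the library median together gave 3832 of 23361 lower, and 4.0-fold gave 578 of 14986. Higher at D7 were 2767 genes as reported, 1533 with 1 added to each FPKM and 1211 at 4.0-fold. In the other gene lists, without the carbonic anhydrase genes, 20 were higher and 7 lower as reported. Above 0 in both were 7 carboxylases, 7 bicarbonate transporters, 8 proton and lactate transporters and 2 phosphatases. The hypoxia-inducible factor lists added 15 targets and 5 genes of its system. The shares over all genes above 0 in both were 18.5% higher and 13.2% lower. The counts of the lists were 17 and 3 with 1 added to each FPKM, where genes listed at 0 enter, and 11 and 1 at 4.0-fold. The ratio over the alternatives ran from 207 to 1703 for Car3, 23.8 to 418 for Car2, 44.1 to 57.6 for Car5b, 2.47 to 3.40 for Car11, 0.0897 to 0.569 for Car8 and 0.318 to 0.744 for Car9. Without Car3, Car5b held 79.0% of the summed FPKM at D7. With no replicates, no library could be left out, and the limits are the single library per stage and the few fragments of the low members.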
